A study of Mus musculus with 2 samples.

Results

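High endothelial venule (HEV) cells were picked out of 2 single-cell RNA libraries of the mouse mammary gland by measured values, and their members were chosen by the UMIs (unique molecules counted) of 7 genes in each barcode. A barcode with at least 1000 UMIs, 500 detected genes and at most 15% mitochondrially encoded UMIs was kept as an HEV barcode when it met 3 further conditions. It had at least 2 UMIs of the endothelial genes Pecam1, Cdh5 and Cldn5 together, at least 5% of its UMIs from Glycam1, and at least 1 UMI of Fut7, Chst4 or Ubd. This kept 203 of 19533 barcodes: 24 of 8798 in the library labelled Fgd5-ko and 179 of 10735 in the library labelled WT. They were set against the 451 and 1529 other barcodes with at least 3 UMIs of the same endothelial genes, called other endothelial barcodes, or other endothelium, here. A pair of values with no library named belongs to the libraries labelled Fgd5-ko and WT.

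The genotype of the mice was labelled Fgd5-ko for 1 library, with cko in its title, and WT for the other, both on the C57BL/6 strain. Both were labelled as mammary gland cells sorted as CD24highCD29+, and the series text calls them basal epithelial cells. The sources used here do not give the age, the number of animals pooled, the cells in which Fgd5 was deleted or the meaning of P4 in both titles. With 1 library per genotype no difference has a replicate check, so every ratio below is a description with a 95% interval that covers counting error only.

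HEVs are the vessels through which lymphocytes leave the blood in lymph nodes and in tissue with lymphoid aggregates. Their plump endothelial cells make sialomucins such as GlyCAM-1, CD34 and podocalyxin, and decorate them with fucosylated, sialylated and sulphated sugars. L-selectin on lymphocytes binds these sugars, after which chemokines of the CCR7 ligand group, shown on the vessel wall, arrest the cell. The state depends on lymphotoxin signalling through the non-canonical NF-kappa-B pathway. Glycam1 is also made by milk-producing epithelium, so the mammary gland holds another possible source of it.

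The markers given for these cells were all present. Every barcode past the depth filter in which Glycam1 took 5% or more of UMIs (24 and 182) also had a UMI of Fut7, Chst4 or Ubd, which the share of Glycam1 alone does not require. Of these barcodes, 0 and 3 lacked the endothelial UMIs. Ptgds, the only given marker that the rule did not use, was found in 18 of 24 HEV barcodes (75%, exact Clopper-Pearson interval 53.3 to 90.2) and 116 of 179 (64.8%, 57.3 to 71.8), against 2 of 451 (0.443%) and 3 of 1529 (0.196%) other endothelial barcodes. The caseins Csn1s1, Csn2 and Csn3 and the whey protein Wap had 0 UMIs in the HEV barcodes of both libraries. They belong to a list of 10 milk protein genes, of which 9 and 8 were at 0 in HEV barcodes and 5 in other endothelial barcodes of each library. The whole list summed to 26.7 and 42.0 CPM in HEV barcodes, against 56.8 and 50.1 CPM in other endothelial barcodes. HEV barcodes fell outside the labelled population: none was in the authors' table of cells. Most other endothelial barcodes did too, with 17 of 451 (3.77%) and 15 of 1529 (0.981%) in that table. The sums of 7 basal epithelial markers were 283 and 584 CPM (counts per 1000000 UMIs of the summed barcodes) in HEV barcodes, against 12989 and 16488 CPM in the cells of that table.

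The libraries differed in depth, at 136697801 and 60566053 UMIs. HEV barcodes were deeper than other endothelial barcodes in both, with medians of 29212 and 11869 UMIs in HEV barcodes, against 9632 and 3692 in other endothelium. HEV barcodes had medians of 2.71% and 2.88% mitochondrially encoded UMIs, against 3.62% and 4.38% in other endothelium. These shares are of all UMIs, of which Glycam1 took a median of 23.8% and 31.3% in HEV barcodes. Its part in the difference was not tested. No HEV barcode sequence occurred in both HEV sets, and 34 barcodes were shared between the libraries in all. Fgd5, the gene named in the genotype, was not lower in the library labelled Fgd5-ko. It stood at 50 UMIs (58.0 CPM, exact Poisson interval 43.1 to 76.5) in HEV barcodes of that library and 100 UMIs (44.3 CPM, 36.0 to 53.8) in those labelled WT, a log2 ratio of 0.39 (-0.13 to 0.89). In other endothelium it stood at 94.4 CPM in the library labelled Fgd5-ko and 94.0 CPM in the library labelled WT. A tag outside the deleted part checks nothing, and the deleted part is not stated, so these values do not check the label.

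The rule required Glycam1 together with Fut7, Chst4 or Ubd in a barcode, so it fixes in part that their RNAs were found together. For these genes, which define the cells, the 250 bases before the annotated starts are shown. They are RefSeq sequences of the GRCm38.p6 build, at chr15:103565082-103565331 (minus strand) for Glycam1, chr2:25422992-25423241 and chr2:25423444-25423693 (plus strand) for the 2 starts of Fut7, chr8:110039335-110039584 (minus strand) for Chst4 and chr17:37193642-37193891 (plus strand) for Ubd. Each ends at the base before the start, and capitals mark motif matches.
Glycam1: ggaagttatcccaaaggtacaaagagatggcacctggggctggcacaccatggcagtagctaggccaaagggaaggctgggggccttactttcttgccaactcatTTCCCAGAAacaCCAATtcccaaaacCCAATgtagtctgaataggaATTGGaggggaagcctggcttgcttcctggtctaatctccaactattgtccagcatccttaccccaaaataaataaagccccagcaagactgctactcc
Fut7, upstream start: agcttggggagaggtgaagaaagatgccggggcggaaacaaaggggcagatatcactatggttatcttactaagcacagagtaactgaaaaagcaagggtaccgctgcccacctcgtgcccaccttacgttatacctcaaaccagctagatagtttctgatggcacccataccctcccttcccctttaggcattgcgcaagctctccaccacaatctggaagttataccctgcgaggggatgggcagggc
Fut7, downstream start: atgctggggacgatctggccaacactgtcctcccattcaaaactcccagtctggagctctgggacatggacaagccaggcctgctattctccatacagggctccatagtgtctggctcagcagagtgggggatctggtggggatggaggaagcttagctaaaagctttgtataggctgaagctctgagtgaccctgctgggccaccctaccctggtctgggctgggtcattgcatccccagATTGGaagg
Chst4: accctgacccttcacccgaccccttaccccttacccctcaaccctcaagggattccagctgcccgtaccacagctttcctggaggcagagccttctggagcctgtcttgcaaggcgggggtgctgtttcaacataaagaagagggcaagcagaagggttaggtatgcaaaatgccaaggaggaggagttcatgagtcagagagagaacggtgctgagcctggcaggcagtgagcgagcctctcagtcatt
Ubd: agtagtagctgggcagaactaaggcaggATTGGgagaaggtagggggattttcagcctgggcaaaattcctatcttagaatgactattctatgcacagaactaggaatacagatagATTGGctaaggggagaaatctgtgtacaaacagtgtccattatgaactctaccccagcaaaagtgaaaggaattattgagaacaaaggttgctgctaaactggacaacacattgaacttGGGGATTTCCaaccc
The motifs searched, on both strands, were the NF-kappa-B consensus, the STAT motif GAS (TTCNNNGAA), the interferon motif ISRE and CCAAT. The Ubd window held the NF-kappa-B consensus 15 bases before its start, and the Glycam1 window held a GAS motif 145 bases before it. The consensus occurred in 7.25% and the GAS motif in 7.02% of all 32851 promoter windows of this length. CCAAT, which occurred in 33.8% of them, was matched 3 times in the Glycam1 window, 2 times in that of Ubd and once before the downstream Fut7 start. None of the 5 windows held the ISRE motif, which occurred in 2.98% of all windows. The Chst4 window and that of the upstream Fut7 start held no match. Of the 13 genes with a window among the 15 highest in HEV barcodes named below, 2 held the NF-kappa-B consensus, as did 2 of 14 among the 15 lowest.

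Glycam1 dominated the RNA of these barcodes. Its lowest, median and highest share of a barcode's UMIs in the library labelled Fgd5-ko was 5.67%, 23.8% and 36.2%. For the library labelled WT these shares were 5.01%, 31.3% and 53.3%. In other endothelial barcodes the highest shares were 4.65% and 4.85% and the medians 0, a difference that the rule fixes. Near the threshold of 5%, 3 of 24 and 11 of 179 HEV barcodes were between 5 and 10%, and 15 of 451 and 10 of 1529 other endothelial barcodes between 2 and 5%. A Glycam1 UMI was also found in cells of the authors' table. With every barcode thinned to 1000 UMIs, this held for 1.95% and 11.5% of them (6036 and 6525 cells), and for 28.02% and 45.8% unthinned at median depths of 15763.5 and 4974 UMIs.

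**Figure D1:**
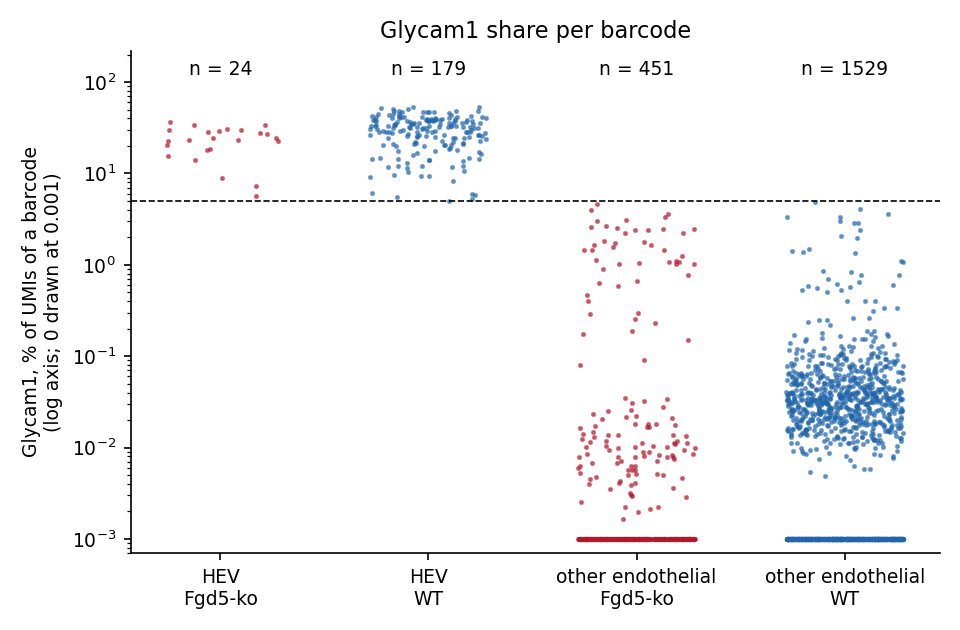
Share of UMIs from Glycam1 in single barcodes (log axis, 0 drawn at 0.001) of HEV and other endothelial barcodes in the libraries labelled Fgd5-ko and WT. Each point is a barcode and the dashed line is the 5% threshold, which the 24 and 179 HEV barcodes exceed by the rule.

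The barcodes just below the threshold were not alike in the 2 libraries. Of other endothelial barcodes with 1 to 5% Glycam1, the library labelled Fgd5-ko had 33, of which 30 carried at least 2 UMIs of the lymphatic genes Prox1, Mmrn1 and Lyve1. The library labelled WT had 17, of which 6 did. The median depths of the 33 and the 17 were 20781 and 5819 UMIs, and the cut of 2 UMIs was not scaled to depth. In CPM, Prox1 stood at 306 in the 33 and 276 in the 17, Mmrn1 at 17.3 and 25.9, and Lyve1 at 934 and 285. In the summed RNA of the 33, Ccl20, a chemokine for CCR6-bearing cells, stood at 3889 CPM, Madcam1 at 549.7 CPM and Ccl21a at 2.67 CPM. In the 17, Ccl20 stood at 86.4 CPM, Madcam1 at 147 CPM and Ccl21a at 21656 CPM, and Fut7 at 354 CPM was near the level of HEV barcodes. Part of the HEV barcodes carried lymphatic markers too: 4 of 24 (16.7%) and 5 of 179 (2.79%) had at least 2 UMIs of the same lymphatic genes. Median depths of HEV barcodes were 29212 and 11869 UMIs, and the part of depth in these counts was not tested. The 3 HEV barcodes of 5 to 10% Glycam1 in the library labelled Fgd5-ko held 2 of those 4, and they had Prox1 at 215 CPM, no Ptgds UMI and Ccl20 at 7139 CPM, against 4.93 CPM in the 21 of 10% or more, and 366 of the 370 Ccl20 UMIs came from 1 of these 3 barcodes. These genes were chosen after their values were seen. Without the 4 and 5 barcodes, the comparison with other endothelium described below gave 85 genes higher and 484 lower, against 90 and 470 with them.

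Of the glycan enzymes that build the L-selectin ligand, the rule genes Fut7 and Chst4 and 4 of the 16 others measured were higher in HEV barcodes. Fut7, the fucosyltransferase that completes the sialyl Lewis X cap, stood at 276 CPM (242 to 314) and 341 CPM (317 to 366) in HEV barcodes, against 7.34 CPM and 10.1 CPM in other endothelial barcodes. Chst4, the sulphotransferase largely restricted to HEVs, stood at 223 CPM (192 to 257) and 136 CPM (122 to 152) in HEV barcodes, against 3.07 and 1.75 CPM in other endothelium. Over single barcodes the lowest, median and highest Fut7 level was 0, 224 and 799 CPM in the library labelled Fgd5-ko and 0, 316 and 1782 CPM in the library labelled WT. Both genes were used to choose the barcodes and are given as a description.

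Among members the rule did not use, Gcnt1, the branching enzyme of core 2 O-glycans, stood at 182 and 115 CPM in HEV barcodes, against 15.01 and 10.5 CPM in other endothelium. Its log2 ratios were 3.60 (3.22 to 3.99) and 3.45 (3.07 to 3.85), among the highest of all genes. Chst2, the second sulphotransferase that acts on these ligands, stood at 172 and 122 CPM in HEV barcodes, against 51.2 and 33.3 CPM in other endothelium. Chst1 stood at 46.4 and 30.5 CPM in HEV barcodes, against 13.3 and 9.78 CPM in other endothelium, and Gmds, which starts GDP-fucose synthesis, at 48.7 and 45.1 CPM in HEV barcodes, against 16.4 and 19.9 CPM in other endothelium. For each of these 4 genes both HEV values lay above both others, which their choice as genes 2-fold higher in each library fixes in large part.

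A gene was counted as higher or lower here when it differed at least 2-fold in the same direction in each library, at a mean of at least 20 CPM over the 4 sums. Among all 5375 genes at that level 141 were higher (2.62% of genes) and 1156 lower (21.5%). Glycam1 enters the total of HEV barcodes, and the median log2 ratio of all genes was -0.52 and -0.80, and at a mean of 50 CPM or more -0.44 and -0.68, but -0.06 and -0.14 when Glycam1 was left out of the total. Of the 25 glycan genes listed, 16 outside the rule passed the level, of which 4 were higher and 1, the sulphate donor synthase Papss1, was lower. When the median gene was set to 0, 7 of the 16 were higher and 1 was lower, against 5.81% and 8.63% of all genes. St3gal6, a sialyltransferase that caps these sugars, stood at the edge, with a ratio of 1.25 in the library labelled Fgd5-ko and just under 2-fold in the library labelled WT.

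Of 7 protein scaffold genes measured outside the rule, none was higher and 1, Podxl, was lower. With the median gene at 0, Selp, a selectin gene on this list rather than a scaffold, was higher and 1 was lower. Cd34, a sialomucin of most vessels, stood at 234 and 219 CPM in HEV barcodes, against 208 and 250 CPM in other endothelium, and the groups overlapped. Podxl, podocalyxin, stood at 2.32 CPM (2 UMIs) and 8.41 CPM (19 UMIs) in HEV barcodes, against 109.5 and 205 CPM in other endothelium, with log2 ratios of -5.56 (-8.61 to -3.70) and -4.61 (-5.34 to -3.96). Madcam1, the addressin of gut-associated and some peripheral HEVs, stood at 30.2 CPM (19.7 to 44.2) and 11.5 CPM (7.52 to 16.9) in HEV barcodes, against 87.5 and 15.9 CPM in other endothelium. It was found in 2 of 24 and 14 of 179 HEV barcodes, 1 of which gave 22 of the 26 UMIs in the library labelled Fgd5-ko. Emcn, endomucin, and Cd300lg, nepmucin, had ratios of -0.23 and -0.93 and of -0.33 and -0.92, close to the median gene.

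**Figure D2:**
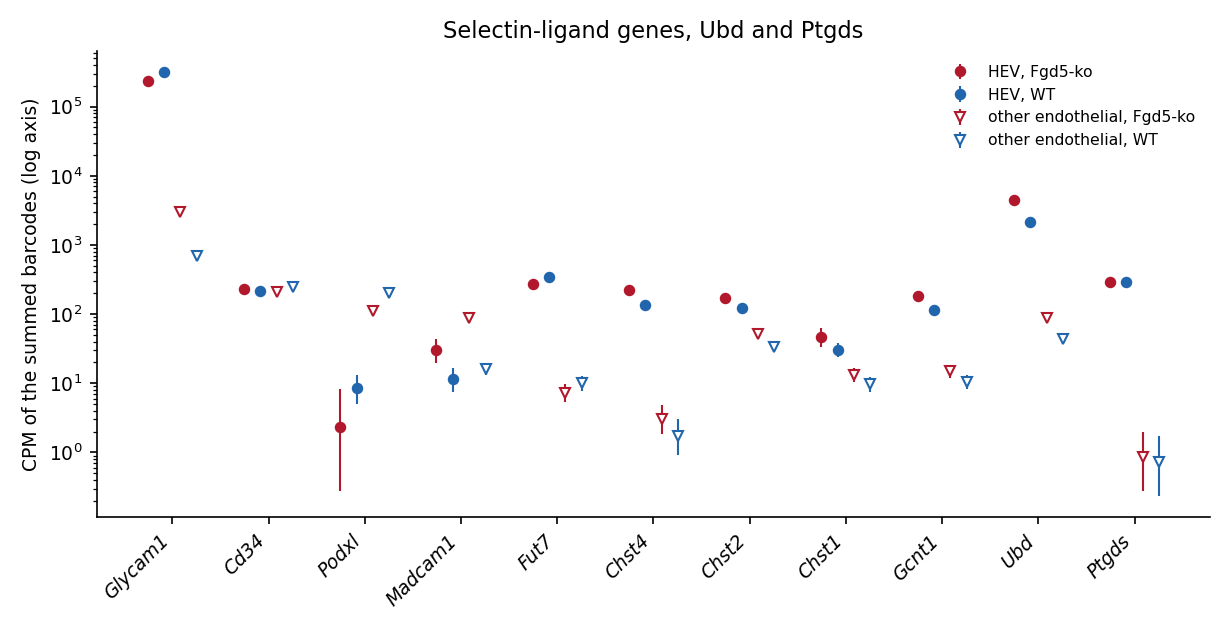
CPM of the summed HEV barcodes (filled circles) and other endothelial barcodes (open triangles) for Glycam1, other scaffolds, glycan enzymes, Ubd and Ptgds on a log axis, with exact Poisson intervals for counting error. Fut7, Chst4, Chst2, Chst1, Gcnt1, Ubd and Ptgds are higher in HEV barcodes of both libraries, Cd34 overlaps and Podxl is lower.

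Beyond the ligand, 90 of 2497 genes of at least 50 CPM were higher (3.6%) and 470 lower (18.8%). Less the median gene these counts were 161 and 216, and with Glycam1 left out of the total 176 and 260 of 2839 genes. The highest was Ptgds, lipocalin-type prostaglandin D synthase, at 295 CPM (260 to 333) and 294 CPM (272 to 318) in HEV barcodes, against 0.853 and 0.730 CPM in other endothelium (5 UMIs each), log2 ratios of 8.43 (7.19 to 10.07) and 8.66 (7.43 to 10.28). The summed levels of the 2 libraries were alike, but in the library labelled Fgd5-ko the top 3 barcodes gave 67.7% of the 254 Ptgds UMIs. In the library labelled WT the top 3 gave 12.9% of 665. Over single barcodes the median was 113 CPM and the highest 1306 CPM in the library labelled Fgd5-ko, and 144 and 4271 CPM in the library labelled WT. Serpina1e, an alpha-1-antitrypsin, stood at 611 and 690 CPM in HEV barcodes, against 0 UMIs and 7.15 CPM in other endothelium, and Serpina1b, its relative, at 636 and 238 CPM in HEV barcodes, against 11.9 and 8.03 CPM in other endothelium. These 2 genes are near-identical copies, so reads may be split between them. Pglyrp1, a peptidoglycan-binding antibacterial protein, stood at 504 and 1084 CPM in HEV barcodes, against 15.01 and 29.1 CPM in other endothelium, and Pf4, the platelet factor 4 chemokine, at 513 and 185 CPM in HEV barcodes, against 39.6 and 7.88 CPM in other endothelium.

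Other genes among the 15 highest were Oit1 (log2 ratios 6.48 and 5.76), the surface protein gene Ly6i (175 and 261 CPM in HEV barcodes, against 10.2 and 2.04 CPM in other endothelium), the giant sarcomere protein gene Ttn (4.26 and 3.35) and Ch25h (3.62 and 3.34), whose product makes 25-hydroxycholesterol. The kinase genes Dclk1 (3.33 and 3.58) and Kit (3.48 and 3.21) were also among them. Hamp, hepcidin, was unlike these in its spread. Its 42 UMIs in the library labelled Fgd5-ko came from 3 barcodes and its 546 UMIs in the library labelled WT from 17, of which the top 3 gave 62.6%. Dclk1, at 231 and 563 UMIs, was found in 23 of 24 and 156 of 179 HEV barcodes.

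Ubd encodes FAT10, a ubiquitin-like modifier induced by tumour necrosis factor and interferon-gamma. It was part of the rule and stood at 4444 CPM (4304 to 4587) and 2116 CPM (2056 to 2177) in HEV barcodes, against 86.8 and 43.2 CPM in other endothelium. The lowest, median and highest barcode stood at 763, 4237 and 8133 CPM in the library labelled Fgd5-ko and 0, 1863 and 6737 CPM in the library labelled WT, so nearly every HEV barcode carried it. At 1000 UMIs per barcode, 23 of 24 and 141 of 179 HEV barcodes had a Ubd UMI, against 3.55% and 1.57% of other endothelial barcodes and 0.348% and 0.153% of cells in the authors' table. At that depth Ptgds was found in 12.5% and 19.0% of HEV barcodes, against 0 of 451 and 2 of 1529 other endothelial barcodes.

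Chemokines and other lymphocyte attractants had the highest count of higher members of any list, 6, but tied with glycan genes at 7 each less the median gene. Of 21 listed, 20 were in the files and 14 passed the level, of which 2 were lower, with median ratios of 1.05 and 1.26. Ccl21a, the CCR7 ligand, stood at 9585 CPM (9380 to 9794) and 16782 CPM (16614 to 16952) in HEV barcodes, against 364 and 1005 CPM in other endothelium. The other 5 were Enpp2, the autotaxin gene (2.19 and 2.42), the chemokine-binding receptor gene Ackr1 (2.30 and 1.61), the cytokine gene Il15 (2.93 and 1.12), and the neutrophil chemokine genes Cxcl1 (1.12 and 1.26) and Cxcl2 (1.16 and 1.37). The 2 lower ones were Cxcl12 at 17.4 and 14.6 CPM in HEV barcodes, against 1005 and 2011 CPM in other endothelium, and Il33 at 2.32 and 0.443 CPM in HEV barcodes, against 54.8 and 41.8 CPM in other endothelium. Cxcl9 and Cxcl10, T cell chemokines induced by interferon-gamma, had ratios of 0.97 and 1.93 and of 0.28 and 1.68. Cxcl13, the B cell chemokine, had no UMI in HEV barcodes of the library labelled Fgd5-ko and 2 UMIs in those of the library labelled WT, and Ccl19, the other CCR7 ligand, had 4 UMIs and none.

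Ccl21a was found at a high level or not at all in most barcodes. In the library labelled Fgd5-ko, 8 HEV barcodes had no Ccl21a UMI, although the shallowest held 7624 UMIs, and the other 16 were all at 1000 CPM or more. In the library labelled WT, 17 had none and 155 of the other 162 were at 1000 CPM or more. Glycam1, which the rule fixes in part, had a median share of 27.7% and 40.6% in the barcodes without it, against 23.1% and 30.0% in those with it. In the library labelled Fgd5-ko, genes outside the rule differed between the 8 and the 16: Ptgds stood at 118 CPM in the barcodes without Ccl21a, against 349 CPM in those with it, and Serpina1b at 1155 CPM in those without it, against 476 CPM in those with it. Serpina1e was at 108.5 CPM in the 8 barcodes and 766 CPM in the 16, but at 967 and 659 CPM in the 17 and the 162. The files list 6 gene IDs named Ccl21a, Ccl21b or Ccl21c, which are near-identical copies, and all UMIs in endothelial barcodes fell on ENSMUSG00000094686, so the level cannot be assigned to a copy. Ccl21a was also absent from 60 of 74 and 138 of 166 lymphatic-gated barcodes, those with at least 2 UMIs of Prox1, Mmrn1 and Lyve1.

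**Figure D3:**
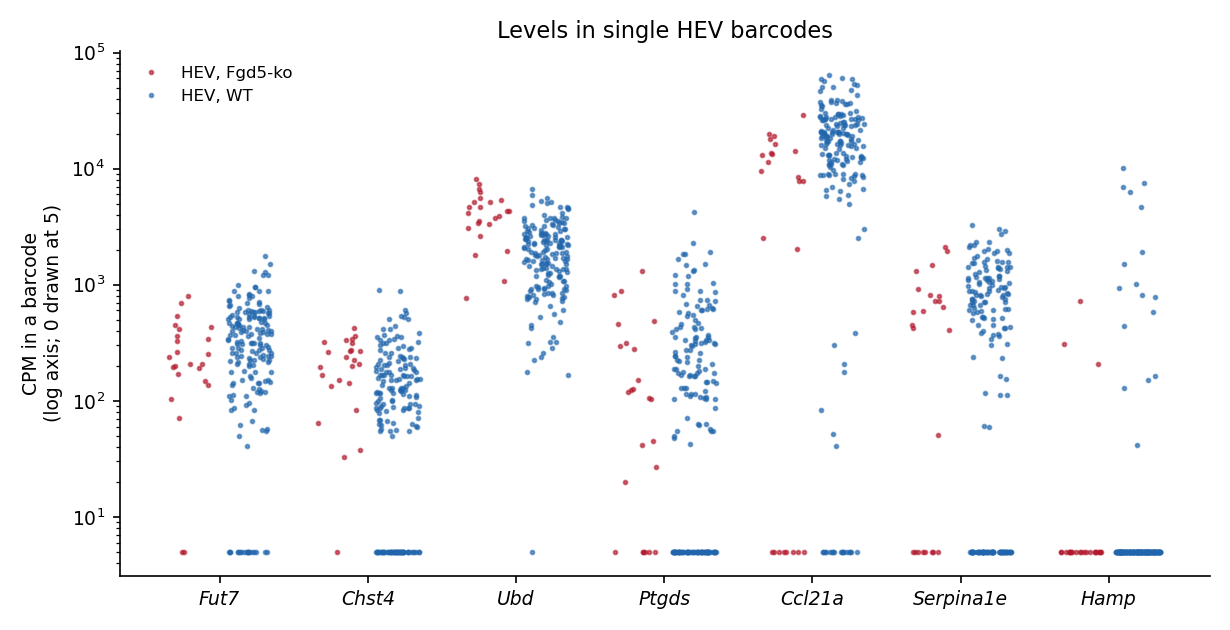
CPM of 7 genes in single HEV barcodes of the libraries labelled Fgd5-ko (left of each pair) and WT (right), on a log axis with 0 drawn at 5. Ubd is found in 24 of 24 and 178 of 179 barcodes, Ccl21a is either absent or mostly above 1000 CPM, and Hamp is found in 3 and 17 barcodes.

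Adhesion genes did not move together. Of 18 listed, 13 passed the level, of which 1 was higher and 3 lower, and the share of lower ones was near that of all genes. Icam1, the ligand of lymphocyte integrin LFA-1, stood at 1240 and 640 CPM in HEV barcodes, against 440.5 and 251 CPM in other endothelium (1.49, 1.39 to 1.60, and 1.35, 1.25 to 1.45). The lower ones were Jam2 (-2.51 and -2.97), Stab1 (-1.89 and -2.34) and Stab2, with 0 UMIs and 2.21 CPM in HEV barcodes, against 14.7 and 64.8 CPM in other endothelium. The selectin genes differed between libraries. Selp had ratios of 1.87 and 0.67, Sele of -2.48 (-3.36 to -1.72) and 0.24 (-0.03 to 0.50), and Vcam1 of -1.02 and 0.44. Sele rested on 14 UMIs in 5 barcodes in the library labelled Fgd5-ko.

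Of 20 genes of the lymphotoxin and NF-kappa-B pathway, 15 passed the level, 2 were higher and none lower. Both are targets of the pathway: Traf1 stood at 55.7 and 82.3 CPM in HEV barcodes, against 16.6 and 14.9 CPM in other endothelium, and Tnfaip3 at 539.5 and 207 CPM in HEV barcodes, against 219 and 77.4 CPM in other endothelium. Relb, the subunit of the non-canonical pathway, had ratios of 0.53 and 1.14. Ltbr, the lymphotoxin beta receptor gene, stood at 22.0 and 7.52 CPM in HEV barcodes, against 40.4 and 36.5 CPM in other endothelium. Less the median gene the list had medians of 0.82 and 1.01, with 4 members higher.

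MHC class II genes were higher in HEV barcodes, and markers of B cells and T cells were found in part of the same barcodes. Cd74, the invariant chain, stood at 989 and 864 CPM in HEV barcodes, against 135 and 51.0 CPM in other endothelium (2.88 and 4.08). H2-Aa stood at 128 and 122 CPM in HEV barcodes, against 16.2 and 9.93 CPM in other endothelium, and H2-Ab1 and H2-Eb1 had ratios of 2.19 and 3.18 and of 2.62 and 3.69. These were 4 of 4 members at the level, of 7 listed. At least 2 UMIs of T and NK, B cell or myeloid markers were found in 7 of 24 (29.2%, 12.6 to 51.1) and 58 of 179 (32.4%, 25.6 to 39.8) HEV barcodes, against 3.77% and 1.11% of other endothelial barcodes. This cut was not scaled to depth, and HEV barcodes were deeper. B cell markers summed to 76.6 and 267 CPM in HEV barcodes, against 3.07 and 13.3 CPM in other endothelium, and T and NK markers to 121 and 88.5 CPM in HEV barcodes, against 6.14 and 4.82 CPM in other endothelium, with 1 of 12 at 0 in the library labelled Fgd5-ko and none in the library labelled WT. Myeloid markers were near 0 in HEV barcodes, at 1.16 and 3.098 CPM, with 5 and 4 of 6 at 0. Igkc, the kappa light chain of B cells, was among the 15 highest genes at 118 and 370 CPM, and stood at 2.01 and 0 CPM in the 13 and 115 HEV barcodes with no immune marker UMI.

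In those same 13 and 115 barcodes Cd74 stood at 937 and 373.5 CPM, against 115 and 28.8 CPM in other endothelial barcodes with no immune marker UMI. Between the same sets, H2-Aa stood at 70.4 and 22.8 CPM in HEV barcodes, against 16.2 and 3.86 CPM in other endothelium, and H2-Eb1 at 68.4 and 12.1 CPM in HEV barcodes, against 17.05 and 5.15 CPM in other endothelium. In the 7 and 58 barcodes with 2 or more immune marker UMIs, H2-Eb1 stood at 228 and 348 CPM. The 3 class II genes were thus higher in HEV barcodes also where no immune marker was detected, and H2-Aa and H2-Eb1 were several-fold lower there than over all HEV barcodes of the library labelled WT. Ptgds stood at 173 and 168 CPM in barcodes with 2 or more immune marker UMIs, 13.3 and 455 CPM in the 4 and 6 with 1, and 408 and 366 CPM in those with none.

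Most capillary genes were nearly absent. Of 9 listed, all 9 passed the level and 8 were lower, with median ratios of -5.36 and -6.55. Cd36, a fatty acid receptor, stood at 19.7 and 8.41 CPM in HEV barcodes, against 1210 and 1380 CPM in other endothelium. Gpihbp1, which anchors lipoprotein lipase to capillaries, stood at 18.6 and 2.66 CPM in HEV barcodes, against 720 and 711 CPM in other endothelium, and Aqp7, a glycerol channel, at 1.16 and 1.33 CPM in HEV barcodes, against 47.6 and 125 CPM in other endothelium. Cd300lg was the exception. Lowest of all genes by the ranking used was Rbp7, a retinol-binding protein gene of capillaries, at 8.12 and 2.21 CPM in HEV barcodes, against 1316 and 493 CPM in other endothelium. The 15 lowest also held Ly6c1, Rgcc, Timp4, Cyp4b1, C1qtnf9, Ednrb, Marco, Cytl1, the cytokine gene Gdf15 and the interferon-induced gene Rsad2 (-6.44 and -6.02). Rgs5, a gene of pericytes and some endothelium, stood at 2 UMIs and 0 UMIs in HEV barcodes, and the pericyte markers summed to 4.64 and 2.21 CPM in HEV barcodes, against 477 and 367.5 CPM in other endothelium.

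Arterial and lymphatic genes were lower as well. Of 7 arterial genes at the level 5 were lower, including Efnb2 (-5.95 and -4.88) and Gja4 (-2.29 and -5.64), and Hey1 had 0 UMIs in both libraries. The higher one, singled out after its value was seen, was Clu, the secreted chaperone clusterin, also on the complement list, at 6283 and 6016 CPM in HEV barcodes, against 1562 and 803 CPM in other endothelium. All 4 lymphatic genes at the level were lower, among them Lyve1 at 13.9 and 8.41 CPM in HEV barcodes, against 394 and 299 CPM in other endothelium, and Prox1 at 13.9 and 3.098 CPM in HEV barcodes, against 89.2 and 76.9 CPM in other endothelium. Of 9 venous genes 2 were higher and 2 lower, and less the median gene 3 were higher and none lower. Lrg1, a glycoprotein of venules, stood at 1993 and 3116 CPM in HEV barcodes, against 419 and 600.2 CPM in other endothelium, and Ackr1 was higher too, whereas Nr2f2, the venous transcription factor COUP-TFII, had ratios of -1.25 and -1.46 and Ephb4 of -1.07 and -1.89.

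**Figure D4:**
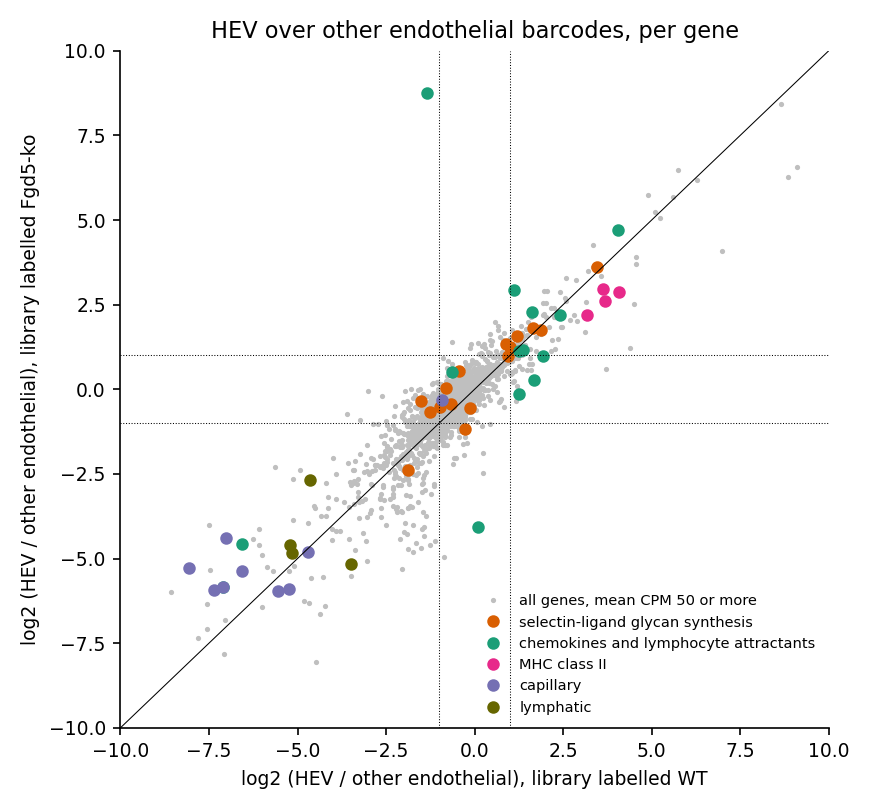
Log2 ratio of HEV over other endothelial barcodes per gene in the library labelled Fgd5-ko (vertical) against the library labelled WT (horizontal). Grey points are genes of mean CPM 50 or more, coloured points the members of 5 lists at mean CPM 20 or more, dotted lines mark 2-fold, and genes at 0 in a group are drawn with 3 counts there. MHC class II genes lie high in both libraries, capillary genes other than Cd300lg and all lymphatic genes low, and Ccl5 is the chemokine point at upper left.

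Growth factor receptors and matrix followed the lower side. Of 10 genes of the VEGF and angiopoietin pathway at the level, 7 were lower. Nrp1, the VEGF co-receptor, stood at 36.0 and 31.4 CPM in HEV barcodes, against 292 and 309 CPM in other endothelium, and Ptprb, the phosphatase that restrains the Tie2 receptor, had ratios of -3.39 and -3.41, whereas Tek, which encodes Tie2, had -2.48 and -3.31. Of 13 basement membrane genes 8 were lower, with Sparcl1 at -3.95 and -4.69, Lama4 at -3.39 and -3.55 and Lamb1 at -3.26 and -3.44. Of 9 Notch pathway genes 5 were lower, among them the ligand gene Jag2 (-3.85 and -3.16) and the target gene Nrarp (-2.50 and -2.11). Of 5 tip cell genes 4 were lower, with Esm1 at 2 and 0 UMIs in HEV barcodes, against 57.8 and 104 CPM in other endothelium. Of 10 BMP and TGF-beta pathway genes 3 were lower, including the ligand gene Bmp2 (-2.76 and -1.47) and the receptor gene Tgfbr2 (-1.83 and -2.53), a share near that of all genes. Less the median gene, the lower counts were 7 of 10, 6 of 13, 3 of 9, 4 of 5 and 1 of 10 in that order of lists, and 8 of 9 for capillary genes.

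Of 15 endothelial transcription factors at the level 7 were lower, with Meox2 at -3.21 and -2.67, Sox17 at -2.23 and -2.82 and Klf4 at -2.23 and -2.75. The only higher one was Meox1, at 237 and 204 CPM in HEV barcodes, against 40.4 and 50.4 CPM in other endothelium, which was singled out after its value was seen. Meox1 and Meox2 are homeobox relatives, and both pairs of HEV values lay outside the other pair, in opposite directions. Their choice as genes past 2-fold in each library fixes this in large part.

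Secretory genes had few members past 2-fold, and lipid genes had many on the lower side. Of 18 endoplasmic reticulum and secretory genes, 1 was higher and none lower: Xbp1, a transcription factor of secretory cells, at 541 and 441 CPM in HEV barcodes, against 124 and 146 CPM in other endothelium. After subtracting the median gene, 6 of the 18 were higher and none lower, including Sdf2l1, Ssr4 and Sec61b. Of 14 lipid genes 7 were lower, led by Lpl (-8.06 and -4.48), and Fabp4, the fatty acid binding protein, at 406 and 611 CPM in HEV barcodes, against 11386 and 15972 CPM in other endothelium, and 1, Ch25h, was higher. Of 6 prostaglandin genes, Ptgds was higher and 3 were lower, among them the prostaglandin transporter gene Slco2a1 (-4.20 and -3.93) and the receptor gene Ptger4 (-3.28 and -5.10). Ptgs2, the inducible cyclooxygenase, had ratios of -2.90 and 0.30.

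Of 11 complement and acute phase genes at the level 3 were higher and 6 lower. With the median gene set to 0 the counts were 5 higher and 4 lower. The 3 higher as measured were Lrg1, Clu and Cfb, a protease gene of the alternative pathway (1.64 and 1.86). C3 had ratios of -3.18 and -4.13 and Cd59a of -3.31 and -2.52. Of 19 interferon response genes none was higher and 4 were lower, near the share of all genes, including Ifit1 at 49.9 and 11.9 CPM in HEV barcodes, against 151 and 70.7 CPM in other endothelium. Of 12 MHC class I and peptide loading genes none was higher or lower. Less the median gene, 3 of these 12 were higher, and B2m stood at 3169 and 2930 CPM in HEV barcodes, against 1938 and 1882 CPM in other endothelium. Of 18 immediate early genes 10 were lower and of 10 heat shock genes 6, with Hspb1 at 296 and 301 CPM in HEV barcodes, against 1221 and 1664 CPM in other endothelium. Less the median gene each had 3 lower. Of the Fgd family and Cdc42 genes 9 passed the level, none was higher and 1, Cdc42ep3, was lower (-1.26 and -2.09), near the share of all genes. With the median gene at 0, 1 was higher and none lower.

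**Figure D5:**
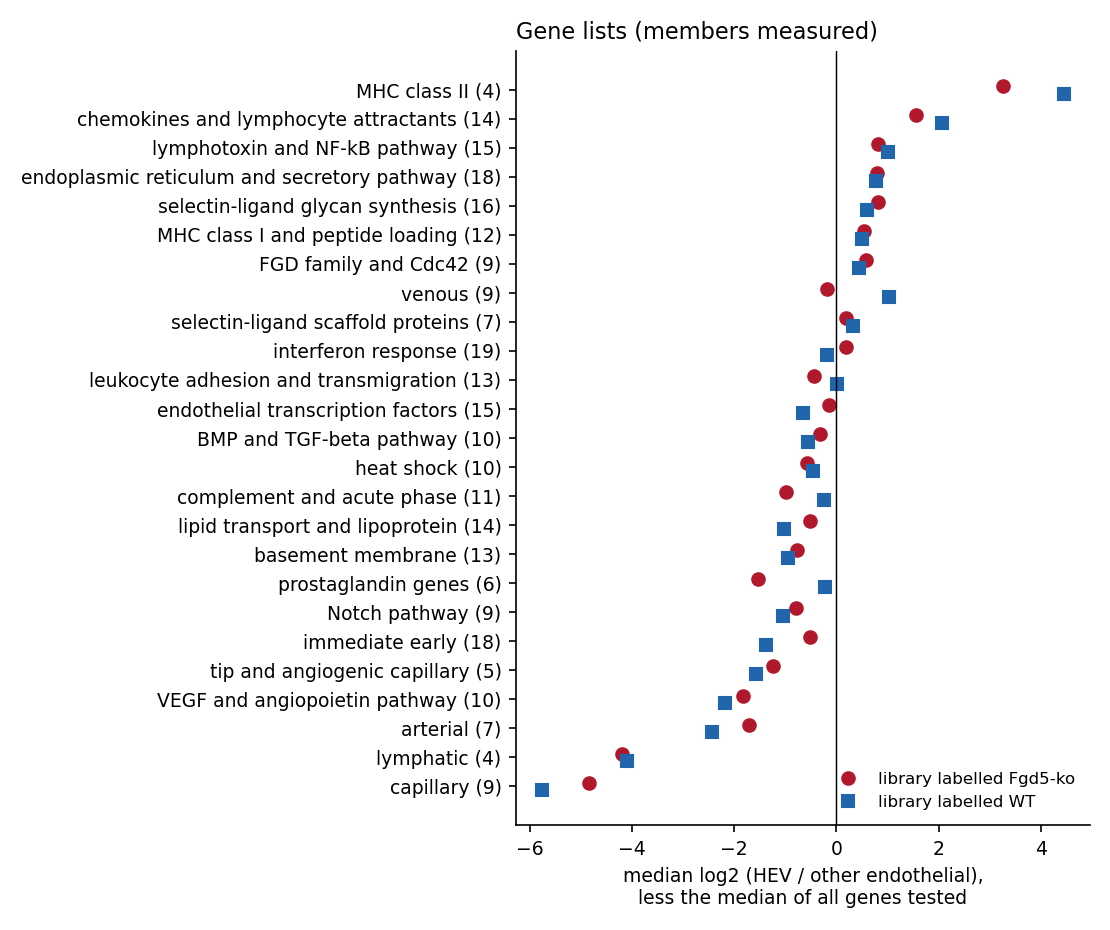
Median log2 ratio of HEV over other endothelial barcodes for each gene list, less the median of all genes tested, in the libraries labelled Fgd5-ko (circles) and WT (squares), with the number of members measured. MHC class II and chemokine lists lie highest and the lymphatic and capillary lists lowest in both libraries.

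Venous-gated barcodes (28 and 132) were other endothelial barcodes with at least 2 UMIs of Ackr1 and Selp together and at most 1 lymphatic UMI. Against them, part of the pattern kept its direction. Of 2493 genes 83 were higher (3.33%) and 366 lower (14.7%), and at 20 CPM or more 153 of 5339 were higher (2.87%) and 827 lower (15.5%). At that level 4 glycan genes were higher and 1 lower, 2 chemokine genes were higher and 4 lower, 2 MHC class II genes were higher, and 7 capillary genes were lower. Other lists changed. Of 9 venous genes none was higher and 7 were lower, and of 7 scaffold genes none was higher and 4 were lower. None of 4 lymphatic genes was higher or lower, which the gate fixes in part. The NF-kappa-B list had 1 higher and 2 lower, and the complement and acute phase list had medians of 1.53 and 0.73. Ptgds had ratios of 5.32 and 6.03, Gcnt1 of 2.75 and 2.68, Chst2 of 2.13 and 1.95, Meox1 of 1.30 and 1.39, Cd36 of -5.82 and -6.71 and Podxl of -4.78 and -2.90. Icam1 did not keep its direction, at -0.27 and -0.59, and neither did Selp (-1.53 and -2.61) or Ackr1 (-1.13 and -1.67). The median gene of at least 50 CPM stood at -0.37 and -0.55 in this comparison, so Icam1 was near it. The counts against venous-gated barcodes were not taken less the median gene. Lrg1 was higher by less than 2-fold, at 0.44 and 0.86. Ackr1 and Selp chose the venous-gated barcodes, so their ratios there are fixed in part by the gate. The gate therefore also enters the counts of lower genes: both are venous genes, Selp is on the scaffold list and Ackr1 on the chemokine list. Venous-gated barcodes held Fut7 at 88.5 and 73.3 CPM and Ubd at 359 and 232 CPM. Fut7 and Ubd were higher in these sums than in other endothelial barcodes as a whole, but few venous-gated barcodes carried them. The UMIs of Fut7, Chst4 and Ubd together had a median and an upper quartile of 0 per venous-gated barcode in both libraries. The highest barcode held 100 such UMIs in the library labelled Fgd5-ko and 33 in the library labelled WT.

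In the library labelled Fgd5-ko, HEV barcodes were 24 of 475 endothelial barcodes (5.05%, 3.26 to 7.42). In the library labelled WT they were 179 of 1708 (10.5%, 9.07 to 12.0). These intervals did not overlap, and they cover counting of barcodes only. The part of the sort, dissociation and depth in these shares was not tested. When 2% Glycam1 sufficed, the library labelled Fgd5-ko had 39 of 475 (8.21%, 5.90 to 11.1), the library labelled WT 190 of 1710 (11.1%, 9.66 to 12.7), and the intervals overlapped. They also overlapped without possible doublets, at 17 of 419 (4.06%, 2.38 to 6.42) and 120 of 1568 (7.65%, 6.39 to 9.08).

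Within HEV barcodes 184 of 1948 genes of mean CPM 50 or more were at least 2-fold higher (9.45%) and 59 lower (3.03%) in the library labelled Fgd5-ko than in the library labelled WT. The split was 156 and 73 without the barcodes that carried lymphatic markers. It turned with the scaling: 75 were higher and 155 lower with TMM factors, 73 and 157 with median ratio factors and 152 and 122 of 2588 with Glycam1 left out of the total. The 2 sums rest on 24 and 179 barcodes of unlike depth. Jun stood at 4441 CPM in the library labelled Fgd5-ko and 610 CPM in the library labelled WT, a log2 ratio of 2.86 (2.77 to 2.95), and 1.23 in other endothelial barcodes. Ier2 had 3.66 (3.51 to 3.81), and 1.24 in other endothelial barcodes, and Egr1 2.41 (2.29 to 2.52), and 1.17. These immediate early genes respond within minutes to stimuli, cell dissociation included, whose part in these ratios was not tested. Of 17 listed at the level in HEV barcodes 14 were higher and none lower, against 12.4% higher and 2.68% lower of all genes at 20 CPM or more, and less the median gene 11 were higher. The difference between the 2 barcode sets was not tested.

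The other genes with the highest library ratios were Socs3, Zfp36, Btg2, Irf1, Lars2, Cxcl9 and Ccl20. Ccl20 rested on 3 barcodes of the library labelled Fgd5-ko, and 1 of them held 366 of its 370 UMIs. Its library ratio was -0.66 with HEV barcodes of 10% Glycam1 or more and -0.41 without those that carried lymphatic markers. Cxcl9 stood at 1703 CPM in the library labelled Fgd5-ko and 298 CPM in the library labelled WT, and was found in 19 of 24 and 66 of 179 HEV barcodes. Ubd was higher by 1.07 (1.01 to 1.13), and Ptgds (0.00, -0.21 to 0.21) and Kit (-0.05, -0.44 to 0.33) had intervals that included 0. For Ptgds, the top 3 barcodes of the library labelled Fgd5-ko gave 67.7% of its UMIs there. Lower in the library labelled Fgd5-ko were Hamp (-2.31), Tagln (-2.21), S100a6 (-2.16), Tmsb10 (-1.82) and Igkc (-1.65), then Usmg5, Tomm7, 2200002D01Rik, Sec61g and Mast4. Several of these rested on few barcodes: Hamp was found in 3 and 17 HEV barcodes, Igkc in 6 and 44, and S100a6 in 9 and 45. For S100a6, 1 barcode gave 25 of the 36 UMIs in the library labelled Fgd5-ko. Tmsb10 (-2.06), Usmg5 (-2.05), Tomm7 (-1.72) and Sec61g (-1.38) had similar ratios in other endothelial barcodes. Tagln, a gene of contractile cells, came from 7 and 56 HEV barcodes, 1 of which gave 34 of the 45 UMIs in the library labelled Fgd5-ko, and fibroblast markers summed to 13.9 and 258 CPM in HEV barcodes, with 4 of 7 at 0 in the library labelled Fgd5-ko and none in the library labelled WT. Their part in these ratios was not tested. Procr, an endothelial protein C receptor gene, stood at 107 CPM in the library labelled Fgd5-ko and 41.6 CPM in the library labelled WT, a ratio of 1.36 (0.93 to 1.79), and 1.29 in other endothelial barcodes.

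Across single HEV barcodes, which share a library and differ in depth, Spearman correlations are given as a description (24 and 179 barcodes). The Glycam1 share correlated with Ptgds at 0.58 and 0.36, and with the summed secretory list at 0.57 and 0.31. It correlated with the log of the UMIs at -0.05 and 0.38, and with Ccl21a at -0.23 and -0.05. Ubd correlated with the log of the UMIs at 0.19 and 0.31, with the interferon response list at 0.32 and 0.30, and with MHC class II at 0.38 and 0.08. Its correlation with MHC class I was -0.22 and 0.15, and with the NF-kappa-B list 0.00 and 0.21.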

How the data were processed

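The authors deposited counts of UMIs for every gene and barcode, 1 matrix per library and not normalized, and the file headers give version 3.1.0 of the Cell Ranger program that wrote them. Cell Ranger, mm9 and Seurat 3.0 stand in the submitters' processing notes, without saying which step used which. A list of barcodes deposited by the authors carries t-SNE positions (a score without a unit, not used here). Its cells were assigned to a library by matching barcodes: all 6064 with 1 ending were found in the library labelled Fgd5-ko and all 6588 with the other in the library labelled WT.

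UMIs were summed per library and barcode set and divided by the set's total (CPM). Genes sharing a symbol were summed. Intervals of 95%, which cover counting error only, are exact conditional for ratios, exact Poisson for CPM and Clopper-Pearson for shares. In ratios and ranks 3 counts took the place of 0. No doublet caller was run, and barcodes with markers of 2 cell types were left out in an alternative. The method was tested on simulated data.

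Members, gene lists and thresholds were chosen with earlier results of these data known. Named are the rule genes, Ptgds, Fgd5 and Procr; the 15 highest and 15 lowest genes against other endothelial barcodes, ranked by the smaller ratio of the 2 libraries (mean CPM 50 or more); the 10 highest and 10 lowest between libraries (mean CPM 100 or more); and per list the 2 to 4 members with the largest mean ratio. In these ranks the rule genes, mitochondrial, ribosomal protein, haemoglobin and sex-linked genes were left out. Members of the ligand, chemokine and adhesion lists could each be named. Genes outside this rule, among them the caseins, Meox1, Clu and B2m, were named after their values were seen.

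The tools were edgeR 4.0.16 (TMM factors only) in R 4.3.3, matplotlib 3.10.9, pandas 2.3.3, SciPy 1.17.1 and NumPy 2.4.6 in Python 3.11.15.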

Additional observations from a re-analysis of the deposited data

Results flagged for a closer look

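The ratio of HEV to other endothelial barcodes had opposite signs in the 2 libraries, at 2-fold or more each, for 1 list member, the T cell chemokine gene Ccl5. The library labelled Fgd5-ko gave a log2 ratio of 8.74 (6.21 to 14.07), and the library labelled WT gave -1.35 (-2.46 to -0.39). The difference was not tested, since there is 1 library of each kind. For the library labelled Fgd5-ko, Ccl5 had 63 UMIs in 3 HEV barcodes, 61 of them in 1 barcode, against 1 UMI in other endothelial barcodes. For the library labelled WT it had 10 UMIs in 3 HEV barcodes, 7 of them in 1 barcode, against 77 UMIs in other endothelial barcodes. In the 13 and 115 HEV barcodes with no T and NK, B cell or myeloid marker UMI it stood at 0 CPM in both libraries, and in the 7 and 58 with 2 or more at 218 and 11.7 CPM.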

How the results depend on the processing

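No paired analysis was possible because there is 1 library per genotype and no test. Against other endothelial barcodes (90 higher and 470 lower), the counts were 176 and 260 with Glycam1 left out of the total, 161 and 216 with ratios less their median (chosen after seeing the data), 141 and 1156 at a minimum of 20 CPM, 32 and 115 at 200 CPM, and 137 and 928 at 1.5-fold. Between the libraries within HEV barcodes (184 higher and 59 lower), they were 75 and 155 with TMM factors, 73 and 157 with median ratio factors, 765 and 204 with barcodes thinned to 1000 UMIs, 522 and 113 at 20 CPM, 68 and 21 at 200 CPM, and 504 and 168 at 1.5-fold. The lower count was 122 with Glycam1 left out and the higher count 306 when 2% Glycam1 sufficed. The HEV share was then 8.21% in the library labelled Fgd5-ko. Without possible doublets it was 4.06% in the library labelled Fgd5-ko and 7.65% in the library labelled WT. Of the named genes, 1 reversed: the library ratio of Ccl20 became -0.66 at 10% Glycam1 or more, which leaves out the 1 barcode with 366 of its 370 UMIs. It was -0.41 without HEV barcodes that carry lymphatic markers (chosen after seeing the data). Of values of named genes across the alternatives, 88 moved beyond their counting interval and 449 did not in the comparison with other endothelial barcodes, and 97 moved, 2 reversed and 274 did not between the libraries. Of the alternatives, that without barcodes of 5% Glycam1 lacking Fut7, Chst4 and Ubd had nothing to leave out. Depth limits genes under about 20 CPM in the library labelled Fgd5-ko, where 24 barcodes hold 861834 UMIs.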
